A study of Mus musculus with 6 samples.

Results

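Cholesterol and fatty acid synthesis genes were followed in γδ thymocytes with and without a floxed Nfatc1 gene cut by Cre. The group held 35 genes of 41195 in the tables, taken by gene name, and covered the mevalonate steps (7 genes), the squalene and sterol steps (11), the SREBP system with a sterol carrier (6), fatty acid synthesis (9) and sterol export (2). RNA-seq was performed on 3 libraries from Rag1Cre-Nfatc1fl/fl mice and 3 libraries from Nfatc1fl/fl mice. Both groups carried Nfatc1 alleles with loxP sites around exon 3 on a C57/B6 background and came from mice of 4 to 6 weeks, and only the first group had the Cre recombinase, which is driven by the Rag1 locus and therefore acts in all developing lymphocytes rather than in γδ cells alone. Cells were taken untreated from the thymus with a magnetic TCRγ/δ selection kit. The labels do not say whether the replicates came from separate animals, so the p-values measure the spread between these libraries, which may be technical.

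Animal cells build cholesterol from acetyl-CoA by way of mevalonate, farnesyl diphosphate, squalene and lanosterol, and build long-chain fatty acids from the same precursor. When sterols in the endoplasmic reticulum run low, the carrier SCAP takes the SREBP transcription factors to the Golgi, where they are cut and released to switch on most genes of both pathways; INSIG proteins hold SCAP back when sterols are plentiful. When sterols are in excess, their oxidised forms bind the LXR receptors, which raise the export pumps ABCA1 and ABCG1. Dividing thymocytes and activated T cells need both pathways to make membranes, and mature resting T cells need them less.

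The libraries held 20734771 to 22638531 reads assigned to genes, and 13185 genes passed the filter on low counts. The first principal component (64.8% of the variance) separated the genotypes, and the second (16.0%) set Rag1Cre-Nfatc1fl/fl replicate 3 apart from the other 5 libraries. That library also had the highest share of ribosomal protein reads, 15.5%, against 11.3% and 11.9% in the other Rag1Cre-Nfatc1fl/fl libraries and 8.64% to 9.32% in Nfatc1fl/fl libraries. Reads over the whole Nfatc1 gene averaged 371 CPM (reads per 1000000 reads assigned to genes, scaled by TMM factors) in the libraries labelled Rag1Cre-Nfatc1fl/fl and 204 CPM in Nfatc1fl/fl libraries, which is 0.87 on the log2 scale; a count over the whole gene does not check the removal of 1 exon. In the paper, RT-PCR found a strong decrease of Nfatc1 RNA in thymocytes of Rag1Cre-Nfatc1fl/fl mice, for double-negative cells with primers reaching exon 3. The γδ marker list was well expressed in both groups, with a sum of 4620 to 4850 CPM against 5060 to 5310 CPM in Nfatc1fl/fl libraries, and 3 of its 10 genes were lower. In a bulk sample, fewer cells of a type and less RNA per cell cannot be told apart. The γδ cells themselves also differed between the genotypes. By the paper's flow cytometry, Rag1Cre-Nfatc1fl/fl mice had a larger share of γδ thymocytes with the transcription factor PLZF. More of their γδ cells also had little or no CD24, and CD73 was higher. A changed mix of γδ cells and a change within like cells therefore cannot be told apart for the genes followed here.

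All 35 genes passed the filter and were tested with edgeR's quasi-likelihood test, with p-values adjusted over all 13185 genes. A gene was called when its adjusted p was under 0.01 and its log2 fold change was beyond 0.5 in either direction. Called higher in Rag1Cre-Nfatc1fl/fl thymocytes were 2 genes (5.71%), the export pump Abca1 and the sterol isomerase Ebp, beside 6.47% of all genes tested. Called lower were 4 genes (11.4%), the squalene epoxidase Sqle, the fatty acid desaturases Fads1 and Fads2 and the elongase Elovl5, beside 3.51% of all genes. The other 29 genes were not called. The median log2 fold change was -0.07 over the 35 genes and -0.00694 over all genes tested. Of the 35 values, 16 were positive and 19 negative. The groups of libraries did not overlap for 6 genes that were higher (17.1%, against 23.3% of all genes) and for 14 genes that were lower (40%, against 23.4% of all genes).

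**Figure D1:**
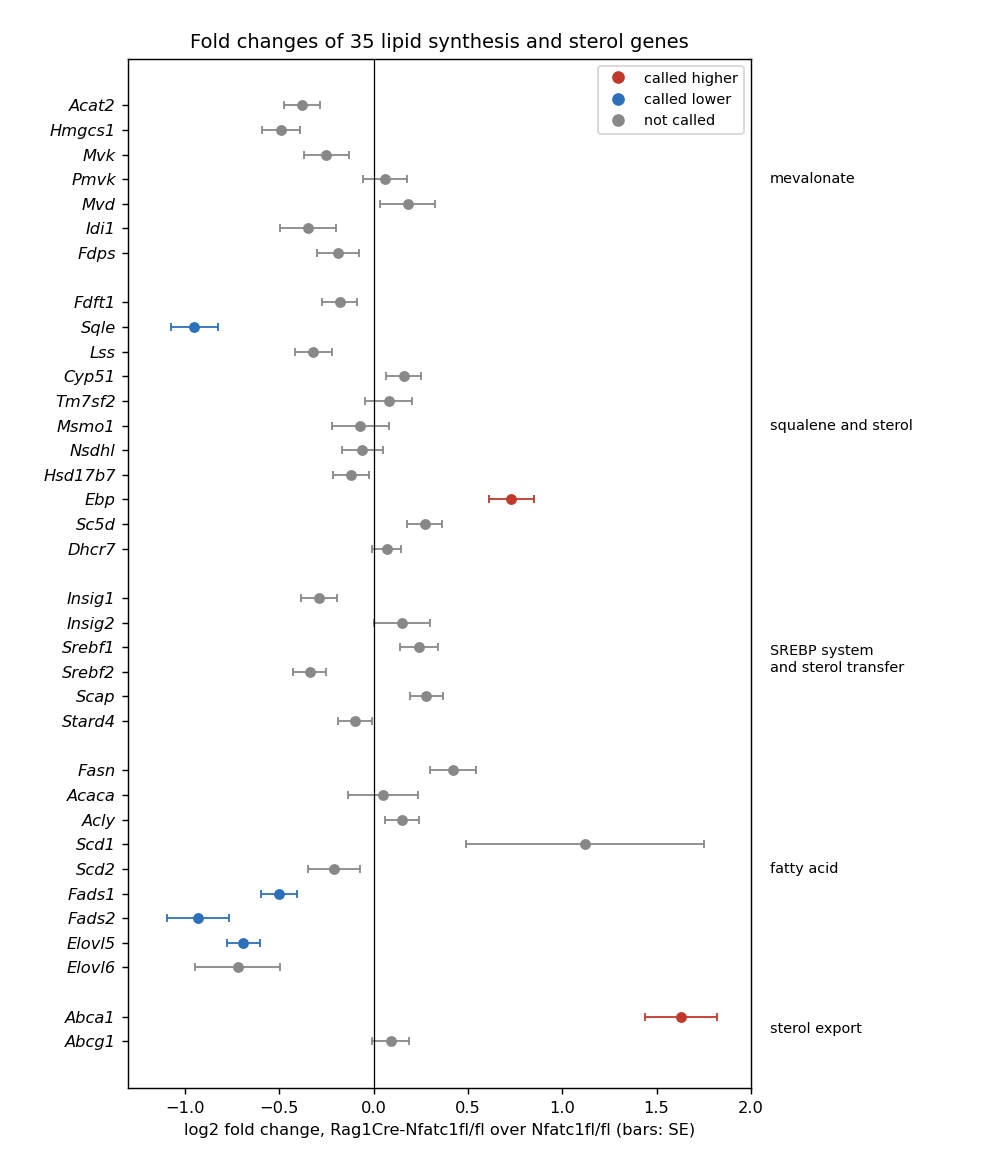
Log2 fold change of each of the 35 genes, Rag1Cre-Nfatc1fl/fl over Nfatc1fl/fl, with its standard error (3 libraries per genotype), in the order of the pathways. Abca1 at 1.63 and Ebp at 0.73 are the red points called higher, and Sqle, Fads1, Fads2 and Elovl5, between -0.95 and -0.50, are the blue points called lower; genes of 1 pathway lie on both sides of 0.

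The promoters of the called genes show what lies in front of genes that moved in opposite directions. The promoter table of RefSeq (GRCm38.p6, the same build as the gene tables) matched 27 of the 35 genes with 35 promoters, and held 4 of the 6 called genes; Sqle and Fads1 are named only. The 250 bases before the start site are given 5′ to 3′ on the strand of the gene. These are chr4:53159896-53160145 (minus strand) for Abca1, chrX:8193513-8193762 (minus strand) for Ebp, chr9:77917115-77917364 (plus strand) for Elovl5 and chr19:10101504-10101753 (minus strand) for Fads2. Capitals mark matches on either strand to the E-box CACGTG, which SREBP and other helix-loop-helix proteins can bind, to the NF-Y box CCAAT, which reads ATTGG when it lies on the opposite strand, and to a direct repeat of the type bound by LXR, searched as GGTNA followed after 5 bases of any kind by GGTCA.
Abca1: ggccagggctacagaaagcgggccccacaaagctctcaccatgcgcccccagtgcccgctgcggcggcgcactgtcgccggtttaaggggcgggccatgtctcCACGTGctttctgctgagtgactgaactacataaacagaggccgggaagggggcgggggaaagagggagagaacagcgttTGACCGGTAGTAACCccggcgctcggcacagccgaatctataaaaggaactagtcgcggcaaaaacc
Ebp: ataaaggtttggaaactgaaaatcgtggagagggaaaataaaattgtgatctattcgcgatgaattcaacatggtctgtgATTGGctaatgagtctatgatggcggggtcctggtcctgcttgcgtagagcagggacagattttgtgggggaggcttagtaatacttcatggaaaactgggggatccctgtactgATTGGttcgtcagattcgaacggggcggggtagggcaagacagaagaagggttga
Elovl5: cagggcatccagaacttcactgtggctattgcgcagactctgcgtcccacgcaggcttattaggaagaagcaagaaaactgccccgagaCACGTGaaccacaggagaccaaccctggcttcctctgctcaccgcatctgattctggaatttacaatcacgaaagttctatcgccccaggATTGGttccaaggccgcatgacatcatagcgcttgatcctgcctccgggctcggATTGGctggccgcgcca
Fads2: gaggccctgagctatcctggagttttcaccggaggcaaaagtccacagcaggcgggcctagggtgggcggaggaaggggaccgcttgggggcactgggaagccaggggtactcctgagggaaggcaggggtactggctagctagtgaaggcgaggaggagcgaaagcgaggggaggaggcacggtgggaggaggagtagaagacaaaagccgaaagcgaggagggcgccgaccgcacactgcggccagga

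In the Abca1 promoter the E-box began 147 bases and the LXR repeat 67 bases before the start. The Ebp promoter had 2 NF-Y boxes, 170 and 55 bases before the start, and the Elovl5 promoter had an E-box at 161 bases and NF-Y boxes at 71 and 17 bases. None of these letters was found in the Fads2 window, nor was the SRE core TCACNCCA, the element by which SREBP is best known. Over all members with a promoter, the E-box was found in 7 of 27 genes and, counted by promoter, in 20% of their 35 promoters, against 6.02% of all 32851 promoters. The NF-Y box was found in 20 of the 27 genes and in 60.0% of their promoters, against 33.8% of all promoters. The SRE core was found in 3 of the 27 genes (Hmgcs1, Msmo1 and Srebf2) and in 8.57% of their promoters, against 3.67% of all promoters. The LXR repeat was found in 3 of the 27 genes (Abca1, Fasn and Srebf1) and in 8.57% of their promoters, against 0.177% of all promoters; its letters were chosen with the Abca1 promoter in view. GGAAA, the core letters that NFAT proteins recognise, was found in 15 of the 27 genes and in 54.3% of their promoters, against 55.6% of all promoters, and it is not marked in the sequences. In these windows no marked motif overlapped another, and a match of letters is a description of the window, not a bound site.

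Sterol export held the change of greatest fold among the called genes. Abca1 (ENSMUSG00000015243, chromosome 4, 53030787 to 53159895, minus strand), which loads cellular cholesterol onto apolipoprotein particles, had 47.2, 48.2 and 34.2 CPM in Rag1Cre-Nfatc1fl/fl libraries, against 17.6, 12.4 and 12 CPM in Nfatc1fl/fl libraries. The groups lay far apart, and the lowest Rag1Cre-Nfatc1fl/fl library was replicate 3. The log2 fold change was 1.63 ± 0.19 (SE, n = 3 each; adjusted p = 0.00101, edgeR), a level 3.09 times as high. The call was kept without each of the 6 libraries in turn, with adjusted p-values up to 0.00836. Abcg1, the partner pump that passes cholesterol to high-density lipoprotein, had 96.4, 97 and 80.9 CPM against 84.1, 90.4 and 82.5 CPM in Nfatc1fl/fl libraries. Its groups overlapped, its log2 fold change was 0.09 ± 0.10, and it was not called. Per transcript length Abcg1 was the more abundant pump, at 54.0 TPM in Rag1Cre-Nfatc1fl/fl and 55.9 TPM in Nfatc1fl/fl libraries (means; transcripts per 1000000 transcripts, which corrects for length), while Abca1 averaged 10.1 TPM and 3.58 TPM. The ratio of Abca1 to Abcg1 in TPM was 0.193, 0.195 and 0.167 in Rag1Cre-Nfatc1fl/fl libraries, against 0.0827, 0.0536 and 0.0578 in Nfatc1fl/fl libraries.

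Macrophages are rich in Abca1, so their markers were read beside it. The 12 macrophage and monocyte markers summed to 91.6, 58.7 and 308 CPM in Rag1Cre-Nfatc1fl/fl libraries, against 102, 32.5 and 22.7 CPM in Nfatc1fl/fl libraries, and 0 of the 10 markers tested were called by edgeR or by DESeq2 (2 were higher at an unadjusted p under 0.05). Marco and Cd14 were at or near 0 in all libraries. The part of these cells in the Abca1 level was not tested.

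In the squalene and sterol branch, 1 of 11 genes rose, 1 fell and 9 were not called, with a median log2 fold change of -0.06. Sqle (ENSMUSG00000022351, chromosome 15, 59315077 to 59331192, plus strand) encodes squalene epoxidase, the first oxygen-dependent and a rate-limiting step of sterol synthesis. It had 17.6, 12.8 and 15.7 CPM in Rag1Cre-Nfatc1fl/fl libraries, against 30.7, 29.5 and 29.0 CPM in Nfatc1fl/fl libraries. No Rag1Cre-Nfatc1fl/fl library came near the control range. The log2 fold change was -0.95 ± 0.13 (SE, n = 3 each; adjusted p = 0.00177, edgeR), so the level in Nfatc1fl/fl libraries was 1.94 times that in Rag1Cre-Nfatc1fl/fl libraries. On intron reads alone, which are few, the value was -0.10 (adjusted p = 0.923).

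Ebp (ENSMUSG00000031168, chromosome X, 8185329 to 8193512, minus strand), which shifts the double bond of sterols from position Δ8 to position Δ7, moved the other way. It had 59.4, 63.9 and 78.7 CPM in Rag1Cre-Nfatc1fl/fl libraries, against 39.9, 42.7 and 39.4 CPM in Nfatc1fl/fl libraries. All 3 Rag1Cre-Nfatc1fl/fl libraries lay above the control range, with replicate 3 the highest. The log2 fold change was 0.73 ± 0.12 (SE, n = 3 each; adjusted p = 0.00435, edgeR). Per transcript length Ebp was the most abundant gene of this branch, with 67.0, 70.1 and 71.2 TPM against 44.4, 50.7 and 45.9 TPM in Nfatc1fl/fl libraries. Sqle averaged 6.22 TPM and 13.8 TPM. The ratio of Ebp to Sqle in TPM was 8.86, 13.1 and 12.4 in Rag1Cre-Nfatc1fl/fl libraries, against 3.22, 3.61 and 3.41 in Nfatc1fl/fl libraries.

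The remaining 9 sterol genes had log2 fold changes between -0.32 and 0.27. Lss, which cyclises the product of Sqle to lanosterol, had 15.7, 17.0 and 18.2 CPM against 21.1, 20.4 and 21.9 CPM in Nfatc1fl/fl libraries. Its groups did not overlap, but its log2 fold change of -0.32 (adjusted p = 0.0534, edgeR) was not called. Sc5d, the desaturase that acts after Ebp, had 36.1, 37.5 and 31.6 CPM against 28.3, 29.3 and 29.7 CPM (log2 fold change 0.27, adjusted p = 0.0773, edgeR). The values of Fdft1, which joins farnesyl units into squalene, of Cyp51, the lanosterol demethylase, and of Dhcr7, the enzyme of the final reduction, were -0.18, 0.16 and 0.07. Those of Msmo1, Nsdhl and Hsd17b7, which remove the methyl groups at carbon C4 and restore the alcohol, were -0.07, -0.06 and -0.12. Tm7sf2, a sterol reductase, had a value of 0.08, but over all libraries only 15.3% of its reads were unique to it, and unique reads gave -0.49. The library kit does not keep strand, so where genes overlap, reads of Fdft1 cannot be told from those of Ctsb, nor those of Cyp51 from Akap9; Tm7sf2 also overlaps Vps51.

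**Figure D2:**
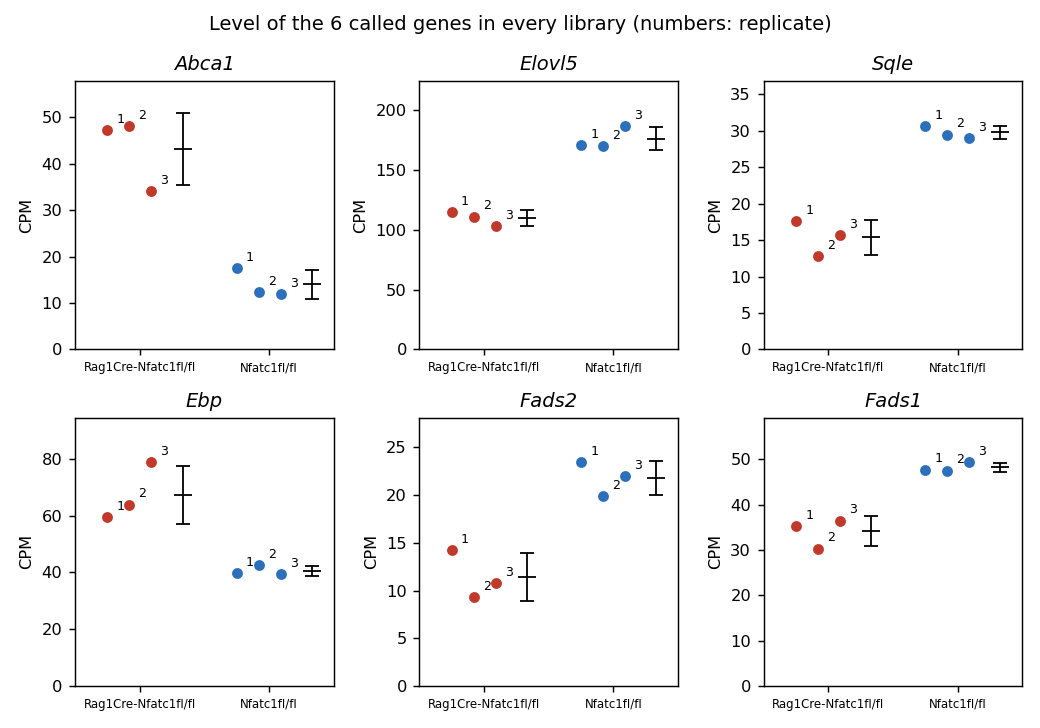
CPM of the 6 called genes in every library, Rag1Cre-Nfatc1fl/fl on the left and Nfatc1fl/fl on the right of each panel; bars are the mean and SD of 3 libraries and small numbers give the replicate. In all 6 panels the genotypes do not overlap, and Abca1 and Ebp are high where Elovl5, Sqle, Fads2 and Fads1 are low.

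Of the 7 mevalonate genes, 0 were called by edgeR or DESeq2, 3 were lower and 0 higher at an unadjusted p under 0.05, and the median log2 fold change was -0.25. Hmgcs1, the synthase that makes HMG-CoA and a standard SREBP target, had 50.5, 41.5 and 41.7 CPM in Rag1Cre-Nfatc1fl/fl libraries, against 65.1, 61.7 and 61.1 CPM in Nfatc1fl/fl libraries. The groups were clearly separate, but the log2 fold change of -0.49 ± 0.10 (adjusted p = 0.0122, edgeR) missed both thresholds narrowly. With DESeq2 the adjusted p was 0.00082, and only the fold threshold, at a value of -0.49, kept Hmgcs1 from a call. By edgeR, Hmgcs1 was called without Rag1Cre-Nfatc1fl/fl replicate 1 (-0.59, adjusted p = 0.00799). Acat2, the thiolase at the entry of the pathway, had 25.8, 22.7 and 24.5 CPM against 34.1, 31.3 and 29.8 CPM (log2 fold change -0.38, adjusted p = 0.0259, edgeR). Idi1, the isomerase of isopentenyl diphosphate, had 34.5, 33.5 and 48.4 CPM against 51.9, 46.1 and 50.5 CPM. Here replicate 3 of Rag1Cre-Nfatc1fl/fl lay inside the control range; the log2 fold change was -0.35 (adjusted p = 0.124, edgeR) with it and -0.53 (adjusted p = 0.000678) without it.

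The kinases Mvk and Pmvk, the decarboxylase Mvd and the farnesyl diphosphate synthase Fdps had log2 fold changes of -0.25, 0.06, 0.18 and -0.19. Mvd was the most abundant of the branch, at 30.2, 36.2 and 37.7 TPM in Rag1Cre-Nfatc1fl/fl libraries, against 33.6, 36.1 and 35.2 TPM in Nfatc1fl/fl libraries, which overlapped. Its reads overlap those of Gm20388 on the opposite strand, and over all libraries only 43.4% of Fdps reads were unique to it, so both values are uncertain. Summed over the branch, the level was 210, 200 and 243 CPM in Rag1Cre-Nfatc1fl/fl libraries, against 271, 253 and 258 CPM in Nfatc1fl/fl libraries. The sums did not overlap, although no single gene was called.

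Of the 6 genes of the SREBP system and sterol transfer, 0 were called by edgeR or DESeq2 (2 were higher and 2 lower at an unadjusted p under 0.05), with log2 fold changes between -0.34 and 0.28. Srebf2, the SREBP chiefly tied to cholesterol genes, had 216, 199 and 184 CPM in Rag1Cre-Nfatc1fl/fl libraries, against 255, 247 and 255 CPM in Nfatc1fl/fl libraries. The groups did not overlap (log2 fold change -0.34 ± 0.09, adjusted p = 0.0288, edgeR). With DESeq2 the adjusted p was 0.00628, and only the fold threshold, at a value of -0.33, kept Srebf2 from a call. Srebf1, the SREBP chiefly tied to fatty acid genes, had 156, 164 and 134 CPM against 134, 123 and 127 CPM. Its groups met at replicate 3 of Rag1Cre-Nfatc1fl/fl (log2 fold change 0.24, adjusted p = 0.116, edgeR), and its reads may include some of the overlapping Rai1. The ratio of Srebf1 to Srebf2 in TPM was 0.924, 1.04 and 0.933 in Rag1Cre-Nfatc1fl/fl libraries, against 0.670, 0.633 and 0.638 in Nfatc1fl/fl libraries, so the SREBP transcripts were near parity in the first group and Srebf2 led in the second. Scap, the sterol-sensing escort of SREBP, had 140, 144 and 127 CPM against 107, 114 and 116 CPM (0.28 on the log2 scale, adjusted p = 0.0497, edgeR). Insig1, itself an SREBP target, had 25.6, 22.4 and 26.4 CPM against 30.2, 30.9 and 29.7 CPM (log2 fold change -0.29, adjusted p = 0.0656, edgeR). Insig2 and the cholesterol carrier Stard4 had values of 0.15 and -0.10, with overlapping groups.

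Fatty acid synthesis held 3 of the 4 lower genes, all acting on long polyunsaturated chains. Elovl5 (ENSMUSG00000032349, chromosome 9, 77917364 to 77984519, plus strand), which lengthens polyunsaturated fatty acids, had 115, 111 and 103 CPM in Rag1Cre-Nfatc1fl/fl libraries, against 171, 170 and 187 CPM in Nfatc1fl/fl libraries. It was the most abundant of the called genes per transcript length, at 104 TPM over all libraries, and its groups lay wide apart. This was a log2 fold change of -0.69 ± 0.09 (SE, n = 3 each; adjusted p = 0.00148, edgeR).

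Fads2 (ENSMUSG00000024665, chromosome 19, 10064164 to 10101503, minus strand) encodes the Δ6 desaturase, which opens the polyunsaturated route. It had 14.2, 9.34 and 10.8 CPM in Rag1Cre-Nfatc1fl/fl libraries, against 23.4, 19.9 and 22.0 CPM in Nfatc1fl/fl libraries. The groups did not overlap. The log2 fold change was -0.93 ± 0.16 (SE, n = 3 each; adjusted p = 0.00595, edgeR). On intron reads, which 16 of the 35 genes had enough of to be tested, Fads2 was the only one called (log2 fold change -2.27, adjusted p = 0.0055, edgeR). Over all genes, 233 of the 6158 tested on intron reads were called. Reads in the Fads2 introns were few here too, so its call rests on small counts. They made up 1.67% of its reads in Rag1Cre-Nfatc1fl/fl libraries, which held 204 to 309 Fads2 reads each. In Nfatc1fl/fl libraries, with 452 to 544 Fads2 reads each, they made up 4.63%. Fads1 (ENSMUSG00000010663, chromosome 19, 10182888 to 10196870, plus strand), the Δ5 desaturase that acts after Elovl5, had 35.3, 30.3 and 36.5 CPM against 47.7, 47.5 and 49.3 CPM. The groups were separate, and the log2 fold change of -0.50 ± 0.10 (adjusted p = 0.00861, edgeR) was at the edge of both thresholds. The ratio of Fads2 to Fads1 in TPM was 0.900, 0.706 and 0.669 in Rag1Cre-Nfatc1fl/fl libraries, against 1.08, 0.927 and 0.968 in Nfatc1fl/fl libraries.

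The summed stromal and B cell markers were lower as well, but their members were split. The 9 markers of thymic epithelium and stroma summed to 113 to 166 CPM in Rag1Cre-Nfatc1fl/fl libraries, against 215 to 246 CPM in Nfatc1fl/fl libraries, with 2 of the 4 tested called lower (Epcam and Pdgfrb). Pecam1 was -0.53 (adjusted p = 0.0571, edgeR), Col1a1 was 1.28 (adjusted p = 0.0355), and Krt5, Krt8, Psmb11, Foxn1 and Col3a1 were too low to be tested. The 6 B cell markers summed to 14.8 to 20.6 CPM against 25.2 to 28.6 CPM, and the sum was almost wholly Cd79b (16.1 CPM and 26.4 CPM on average), which was called lower. Cd22, the other tested marker, had a value of 1.84 (adjusted p = 0.122, edgeR), and the defining genes Ms4a1 and Pax5 were near 0. The part of these cells in the lower values of Sqle, Elovl5, Fads1 and Fads2 was not tested.

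The genes that build saturated and monounsaturated fatty acids were not called. Fasn, the fatty acid synthase, had 433, 454 and 340 CPM in Rag1Cre-Nfatc1fl/fl libraries, against 320, 308 and 291 CPM in Nfatc1fl/fl libraries. Every Rag1Cre-Nfatc1fl/fl library was above the control range, with replicate 3 closest to it. The log2 fold change was 0.42 ± 0.12 (adjusted p = 0.0409, edgeR) with all libraries and 0.55 (adjusted p = 0.000195) without replicate 3 of Rag1Cre-Nfatc1fl/fl. Acly, which supplies cytosolic acetyl-CoA, and Acaca, which makes malonyl-CoA from it, had log2 fold changes of 0.15 and 0.05. Acaca had 76.6, 78.7 and 47.6 CPM against 70.9, 61.2 and 64.4 CPM, so that replicate 3 alone of Rag1Cre-Nfatc1fl/fl was below the control range.

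Scd2, a stearoyl-CoA desaturase, was the most abundant of all 35 genes, at 242, 232 and 138 TPM in Rag1Cre-Nfatc1fl/fl libraries, against 242, 275 and 258 TPM in Nfatc1fl/fl libraries. Its log2 fold change was -0.21 (adjusted p = 0.297, edgeR). Scd1, the isoform best known from liver and fat, was barely read, at 0.918, 0.638 and 1.32 CPM against 0.904, 0.264 and 0.134 CPM, and its value of 1.12 ± 0.63 (adjusted p = 0.236) was too uncertain to give a direction. Elovl6, which lengthens palmitate, had 27.8, 27.9 and 14.6 CPM in Rag1Cre-Nfatc1fl/fl libraries, against 42.1, 36.5 and 37.7 CPM in Nfatc1fl/fl libraries. The groups did not overlap, and replicate 3 of Rag1Cre-Nfatc1fl/fl was far below the other libraries of its group. Its value was -0.72 ± 0.23 (adjusted p = 0.053, edgeR) with that library and -0.47 (adjusted p = 0.00242) without it, and it was called in neither case.

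**Figure D3:**
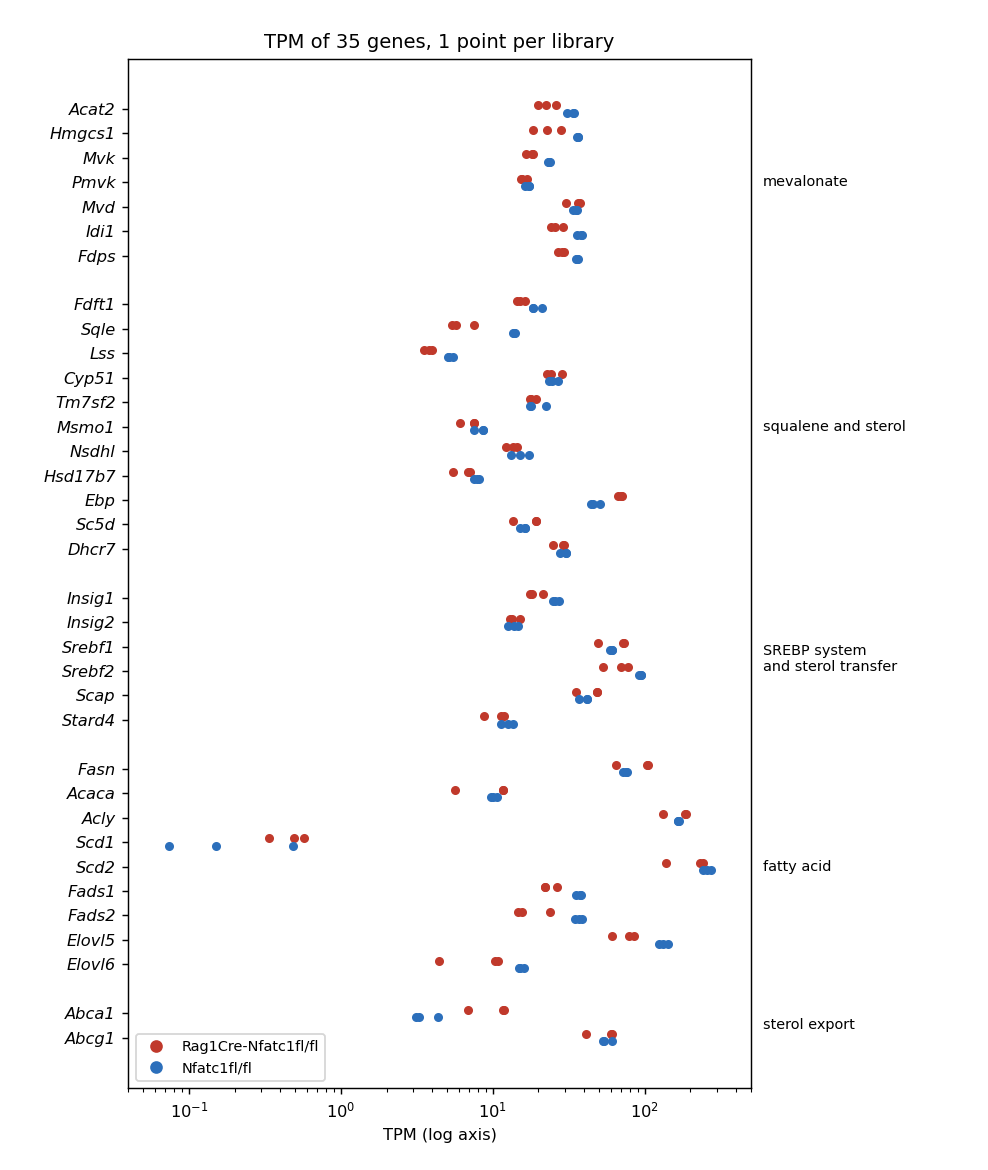
TPM of the 35 genes on a log axis, 1 point per library, Rag1Cre-Nfatc1fl/fl in red above Nfatc1fl/fl in blue, in the order of the pathways. Mean levels run from 0.351 TPM for Scd1 to 231 TPM for Scd2, and in many genes of the fatty acid and SREBP groups 1 red point, replicate 3, stands to the left of the other red points.

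Replicate 3 of Rag1Cre-Nfatc1fl/fl deviated from replicates 1 and 2 with gene length and in the markers of other cells. Over the 34 members with a mean over 1 TPM, its deviation in log2 CPM had a Spearman correlation of -0.542 with exon length, and over all 13185 genes the correlation was -0.44; the points share the same 3 libraries, and genes are not independent replicates. Deviations among long genes were -0.92 for Elovl6, -0.71 for Acaca (17074 bases of exon), -0.48 for Abca1 and -0.38 for Fasn, but 0.15 for Lss (10787 bases). Among shorter genes they were 0.51 for Idi1 (3505 bases) and 0.46 for Mvd (1859 bases), but -0.09 for Fads2, the shortest (1508 bases), and 0.02 for Acat2 (2544 bases). The 10 markers of αβ and double-positive thymocytes summed to 1470, 1210 and 2020 CPM in Rag1Cre-Nfatc1fl/fl libraries, against 1650 to 1660 CPM in Nfatc1fl/fl libraries, and Cd8a had 69.3, 31.4 and 136 CPM against 55.1, 50.8 and 45.2 CPM. Of these markers 1 was called between genotypes, Cd4, at 80.9, 67.9 and 90.1 CPM against 32.7, 32.9 and 28.8 CPM (log2 fold change 1.34, adjusted p = 0.000353, edgeR). The paper's flow cytometry found CD4 on γδ thymocytes as well, on a larger share of them in Rag1Cre-Nfatc1fl/fl mice. Cd4 reads therefore do not mark αβ or double-positive cells alone. The 7 erythroid markers summed to 16.2, 7.79 and 52.5 CPM against 29.1, 3.96 and 19.3 CPM. Macrophage, erythroid and αβ sums were thus highest of the 6 libraries in replicate 3, and the part of these cells in the values of the 35 genes was not tested. With the trend on length removed from each library, all 6 calls were kept and Fasn was called as well (0.60, adjusted p = 0.000613). Without replicate 3, all 6 calls were kept, and Fasn (higher) and Idi1 (lower) joined them.

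**Figure D4:**
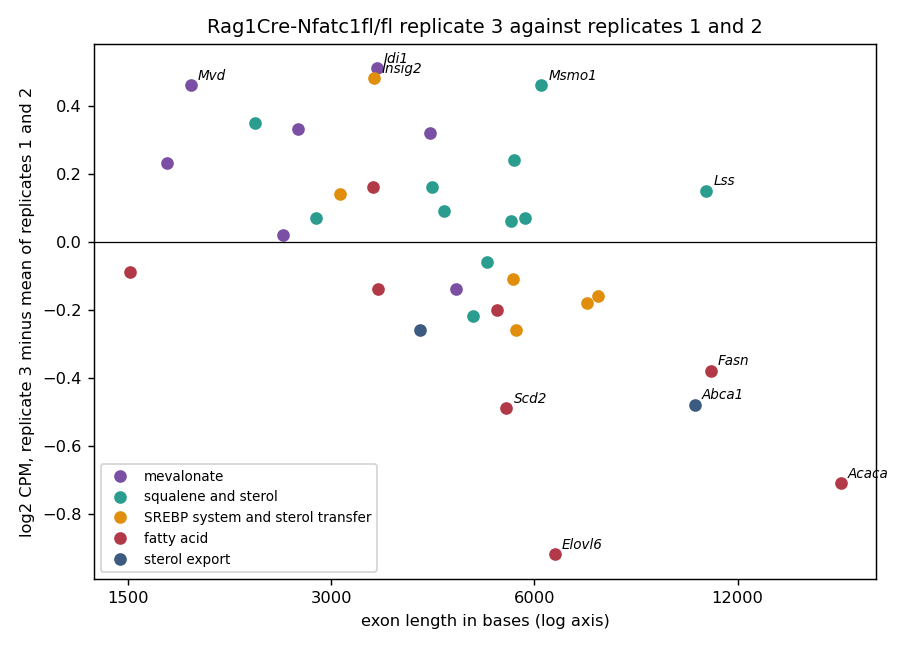
Difference in log2 CPM between Rag1Cre-Nfatc1fl/fl replicate 3 and the mean of replicates 1 and 2, against exon length in bases on a log axis, for the 34 genes with a mean over 1 TPM, coloured by pathway. Points fall toward longer genes (Spearman correlation -0.542), with Elovl6 and Acaca lowest and Idi1, Insig2, Mvd and Msmo1 highest.

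The calls differed in how far they leaned on single libraries. Abca1 was called without any 1 of the 6 libraries, Elovl5 and Sqle in 3 of the 6 cases, Ebp and Fads2 in 2 and Fads1 in 1. Without Nfatc1fl/fl replicate 1, 2 or 3, only Abca1 was called among the 35 genes, and adjusted p-values of the other 5 lay between 0.0103 and 0.0448. Calls over all genes fell in the same 3 cases, so this loss was not particular to these genes. Higher calls went from 853 to 388, 419 and 380, and lower calls from 463 to 100, 122 and 108. The direction of all 6 called members was the same without each library. Their log2 fold changes without 1 library ranged over 1.53 to 1.82 for Abca1, 0.61 to 0.81 for Ebp, -1.06 to -0.84 for Sqle, -1.11 to -0.80 for Fads2, -0.72 to -0.63 for Elovl5 and -0.54 to -0.42 for Fads1. On the log2(TPM + 1) scale, tested with limma, only Ebp and Sqle were called; Abca1 had a value of 1.25 there (adjusted p = 0.0227) and Elovl5 -0.83 (adjusted p = 0.0153).

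**Figure D5:**
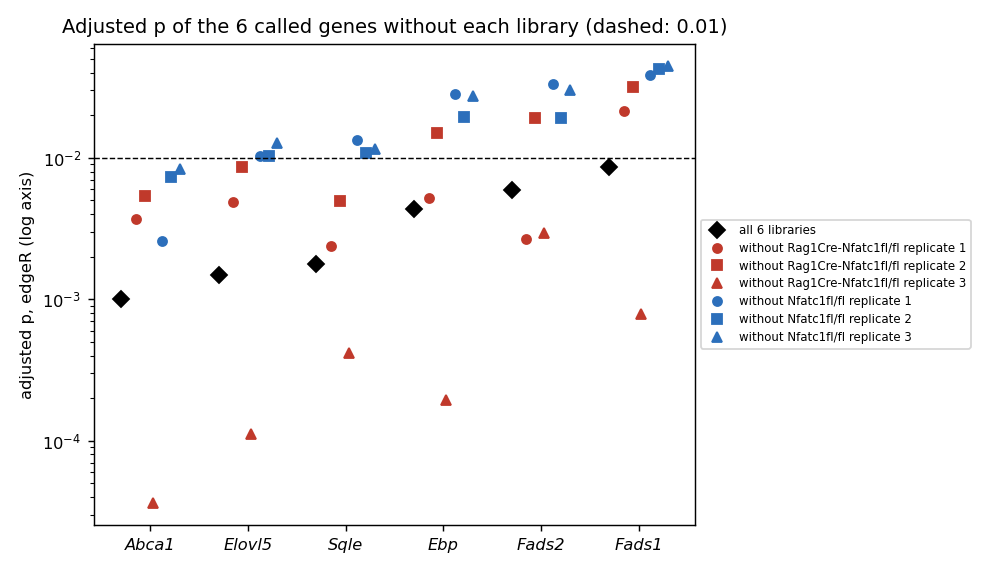
Adjusted p (edgeR, log axis) of the 6 called genes with all 6 libraries (black diamonds) and without each library in turn (red for a Rag1Cre-Nfatc1fl/fl library, blue for an Nfatc1fl/fl library). Abca1 stays below the dashed line at 0.01 throughout, and for the other 5 genes every blue point is above it.

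Around the 35 genes, 7 lists of related pathways held 134 further genes, of which 116 were tested, 15 were called higher and 0 lower by edgeR (median log2 fold change 0.11), beside 6.47% and 3.51% of all genes. DESeq2 called 19 higher and 2 lower, beside 1251 higher and 741 lower over all genes. At an unadjusted p under 0.05 edgeR had 39 higher and 11 lower. At an adjusted p under 0.05 with no fold threshold edgeR called 28 higher and 5 lower, beside 1739 and 1334 of all 13185 genes. On TPM (pseudocount 1 or 0.1, limma) 3 were higher and 1 lower, beside 352 or 351 and 172 or 147 over all genes. On intron reads, with 60 of the list genes tested, 1 was higher and 0 lower, beside 170 and 63 of 6158 genes. Without 1 library the higher calls in the lists ranged from 7 to 18 and the lower calls from 0 to 3. Leaving out a Rag1Cre-Nfatc1fl/fl library (replicate 1, 2 or 3) gave 14, 8 or 18 higher calls, and leaving out an Nfatc1fl/fl library gave 7, 7 or 8.

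In the list of LXR receptors, their partners and genes linked to LXR, 3 of 11 genes rose (median log2 fold change 0.53). Smpdl3a, a secreted phosphodiesterase known as an LXR target in macrophages, had 336, 405 and 442 CPM in Rag1Cre-Nfatc1fl/fl libraries, against 86.0, 101 and 91.4 CPM in Nfatc1fl/fl libraries (log2 fold change 2.09, adjusted p = 5.08e-05, edgeR). Rxra, the receptor that pairs with LXR and many other nuclear receptors, averaged 107 CPM and 48.1 CPM (1.15, adjusted p = 0.000278). Abca7, a pump related to Abca1, rose by 0.53 on the log2 scale (adjusted p = 0.00276). The other 8 genes were not called. They were Abca2 (0.51), Apoe (0.91), Apoc1 (0.82), Arl4c (0.12), Lpcat3 (0.12), Rxrb (-0.03) and the LXR receptor genes Nr1h2 and Nr1h3. Nr1h2 had a value of 0.07, and Nr1h3 had 5.14, 4.05 and 23.2 CPM against 3.27, 1.89 and 1.91 CPM (adjusted p = 0.0504, edgeR), with the highest level in the library that also had the highest macrophage marker sum.

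In sterol uptake, trafficking and esterification, 4 of 18 genes rose and 0 fell (median 0.09). Soat2, which esterifies cholesterol for storage, had 6.33, 7.74 and 7.18 CPM in Rag1Cre-Nfatc1fl/fl libraries, against 1.12, 0.880 and 1.11 CPM in Nfatc1fl/fl libraries (log2 fold change 2.77, adjusted p = 0.000105, edgeR). Gramd1a, which carries cholesterol from the plasma membrane to the endoplasmic reticulum, averaged 127 CPM and 64.0 CPM (0.99, adjusted p = 0.000459), and the oxysterol-binding protein gene Osbpl5 rose by 0.66 on the log2 scale (adjusted p = 0.00239). These groups of libraries did not overlap.

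In the list drawn up around SREBP processing, 1 of 16 genes rose, Tmem97, a sterol-regulated membrane protein (log2 fold change 0.62, adjusted p = 0.00451, edgeR). The other 15 were not called, among them the SREBP protease genes Mbtps1 (0.02) and Mbtps2 (-0.09). Of the isoprenoid branch of the mevalonate pathway, 0 of 16 genes were called by edgeR and 1, higher, by DESeq2 (4 were higher and 1 lower at an unadjusted p under 0.05); Zmpste24, the protease that trims prenylated prelamin A, was the most abundant of it, with a value of 0.37 (adjusted p = 0.0327). Of the mTORC1 and growth signals, 1 of 11 rose, Myc, a driver of cell growth (1.02, adjusted p = 0.000576).

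Other fatty acid genes that edgeR called were higher. Of 20 other genes of synthesis, elongation and activation, 3 rose and 0 fell (median 0.19). They were Hacd3, a dehydratase of the elongation cycle (log2 fold change 0.76, adjusted p = 0.000815, edgeR), Elovl1, which lengthens saturated very long chains (0.63, adjusted p = 0.00117), and Acsl5, which activates fatty acids (0.64, adjusted p = 0.00195). Elovl1 had 63.5, 66.0 and 63.9 CPM in Rag1Cre-Nfatc1fl/fl libraries, against 40.8, 42.3 and 41.6 CPM in Nfatc1fl/fl libraries, opposite to Elovl5. Of 25 genes of uptake, oxidation and storage, 3 rose and 0 fell (median 0.08). Fabp7, a fatty acid binding protein best known from brain, had 25.7, 23.5 and 18.8 CPM in Rag1Cre-Nfatc1fl/fl libraries and 0.172, 0.176 and 0 CPM in Nfatc1fl/fl libraries. The mitochondrial oxidation enzymes Acaa2 and Acadvl rose by 0.64 (adjusted p = 0.00318) and 0.54 (adjusted p = 0.00334) on the log2 scale. Acadl, another such enzyme, went the other way but was not called. It averaged 58.6 CPM in Rag1Cre-Nfatc1fl/fl and 79.2 CPM in Nfatc1fl/fl libraries (log2 fold change -0.43, adjusted p = 0.0158, edgeR).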

How the data were processed

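RNA of magnetically selected γδ thymocytes (3 Rag1Cre-Nfatc1fl/fl and 3 Nfatc1fl/fl libraries, grouped by their titles) was made into poly(A) libraries without strand. Per the study's methods, reads were trimmed with cutadapt, aligned with STAR to GRCm38 and counted with featureCounts; the deposited tables have another layout, and no source used here names the software behind it. The deposited values used here are the authors' counts of total, unique, exon and intron reads per gene, not normalized. TPM was recomputed from exon reads and length and differed from the deposited TPM by at most 4.86e-11 of the value (for values over 1).

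Total reads were filtered (filterByExpr), scaled by TMM and fitted with edgeR 4.0.16 (quasi-likelihood, genotype only, R 4.3.3), with Benjamini-Hochberg adjustment over all genes and the study's thresholds (adjusted p under 0.01, log2 fold change beyond 0.5). The main test uses edgeR where the study used DESeq2, which was run as an alternative (1.42.0), as was limma 3.58.1. The test was checked on simulated counts. With 20734771 to 22638531 reads per library, counting error was small beside the spread between libraries (common biological coefficient of variation 0.154). No pair of libraries was alike enough to be 1 library. Alternatives were other scalings (RLE, upper-quartile, library size alone), no filter, a replicate block, other read classes, TPM, removal of the length trend and leaving out each library; for the further lists, these alternatives were added after the data were seen. The 35 genes and the lists were chosen with earlier results of these data known. Of the 35, genes called or most abundant in their pathway are given by library, with others shown where groups or replicate 3 bear on them, chosen after their values were seen; of the lists, up to 3 called genes, or the most abundant one where none was called, with a few named further. 1 B cell marker is not reported here. Promoters are RefSeq's (GRCm38.p6). Figures were drawn with matplotlib 3.10.9.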

Additional observations from a re-analysis of the deposited data

How the results depend on the processing

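Over the 35 genes and their alternatives, 578 fold changes kept direction and side of the threshold, 34 lost a call, 4 gained one and 30 changed sign, none of them a call; the causes of the changes were not tested. With library size alone the median log2 fold change of all genes was -0.107, and on TPM it was -0.125 (pseudocount 1) and -0.155 (0.1), against -0.00694 with TMM. Sign changes with library size alone were Pmvk -0.04, Tm7sf2 -0.02, Dhcr7 -0.03, Acaca -0.04 and Abcg1 -0.00. On TPM with a pseudocount of 1 and 0.1 they were Pmvk -0.09 and -0.09, Mvd -0.02 and -0.02, Tm7sf2 -0.07 and -0.07, Dhcr7 -0.08 and -0.08, Acaca -0.13 and -0.14, Acly -0.01 and -0.01, and Abcg1 -0.07 and -0.07. Intron reads gave Hmgcs1 0.35 and Insig2 -0.75, unique reads gave Tm7sf2 -0.49, and removal of the length trend gave Pmvk -0.07 and Msmo1 0.03. Without Rag1Cre-Nfatc1fl/fl replicate 1, Acaca was -0.05; without replicate 2, Acaca was -0.08 and Msmo1 0.06; without replicate 3, Pmvk and Insig2 were -0.01; without Nfatc1fl/fl replicate 3, Nsdhl was 0.02. Over all single libraries left out, the ranges of these genes were -0.01 to 0.12 (Pmvk), -0.22 to 0.06 (Msmo1), -0.11 to 0.02 (Nsdhl), -0.01 to 0.25 (Insig2) and -0.08 to 0.26 (Acaca).

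Genes called higher numbered 853, and 170 on intron reads, 352 and 351 on TPM (pseudocount 1 and 0.1), 1739 at an adjusted p under 0.05 with no fold threshold, and 380 to 1131 without 1 library. Genes called lower numbered 463, and 741 by DESeq2, 63 on intron reads, 172 and 147 on TPM, 1334 at an adjusted p under 0.05, and 100 to 665 without 1 library. Members called higher numbered 2, and 0 on intron reads, 1 and 1 on TPM (Ebp), 4 at an adjusted p under 0.05, and 1 to 3 without 1 library; members called lower numbered 4, and 1 on intron reads, 1 and 0 on TPM (Sqle with a pseudocount of 1), 7 at an adjusted p under 0.05, and 0 to 5 without 1 library. Fads1 was not called with RLE factors (-0.49, adjusted p = 0.00887), DESeq2 (-0.50, 0.000369) or unique reads (-0.50, 0.00849), where its fold change lay just inside the threshold. With the replicate block the counts were 778 higher and 393 lower among all genes, and 2 and 3 among members, with Fads1 lost (-0.50, adjusted p = 0.0132). Libraries with the same number deviated together with correlations of 0.0258, 0.183 and 0.00547, so the numbers were not taken to pair them. At this depth Scd1 was too low for a direction.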
